A study of Mus musculus with 24 samples.

Results

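The proteasome is the protease complex that degrades proteins tagged with ubiquitin, and its genes carry names that start with Psma to Psmg. Members were the protein-coding rows of the deposited table whose symbol starts with Psma, Psmb, Psmc, Psmd, Psme, Psmf or Psmg followed by a digit, and 50 of 38215 genes met that rule. They comprised 7 alpha and 7 constitutive beta subunits of the core, 5 genes of the immunoproteasome (Psmb8, Psmb9, Psmb10, Psme1 and Psme2), 8 genes of the base and 9 of the lid of the cap, 7 assembly factors and 3 other regulators. A remaining 4 had names of that form but other roles or restricted expression (Psma8, Psmb11, Psmc3ip and Psme2b-ps). Of the 50 members, 48 passed the filter on low counts in every comparison, and Psma8 and Psmb11 did not.

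The study sequenced poly(A) RNA of mouse NK cells in 6 groups of 4 libraries. Knockout (KO) and wild-type (WT) cells came from tumour-bearing lung, from spleen after IL-15 treatment and from naive spleen, and the series title names FcRγ, the adaptor encoded by Fcer1g, as the factor studied. The labels do not state strain, age, how the KO was made, the IL-15 dose and route, the tumour or the isolation of the NK cells. They describe 4 biological replicates for each group but do not tie them to animals, so p-values measure the spread between these libraries.

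The core particle is a barrel of alpha rings that gate entry and beta rings that hold the proteolytic sites, and the cap, built of a base with ATPases and a lid, binds, unfolds and deubiquitinates substrates. In cells of the immune system and under interferon, Psmb8, Psmb9 and Psmb10 replace the constitutive catalytic subunits encoded by Psmb5, Psmb6 and Psmb7. Psme1 and Psme2 encode the PA28 activator, which docks on the same barrel and alters which peptides leave it for MHC class I.

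The promoters of 2 exchange pairs are shown: Psmb9 and Psmb6, whose ratio separated the states, and Psmb8 and Psmb5, whose ratio overlapped between most groups. Windows run from 250 bases before to 50 bases after the RefSeq start on GRCm38.p6, are written 5′ to 3′ on the strand of the gene, and carry motif matches in capitals. Psmb9 lies at chr17:34187281-34187580, minus strand, and Psmb6 at chr11:70525107-70525406, plus strand. Psmb8 lies at chr17:34197945-34198244, plus strand, and Psmb5 at chr14:54617946-54618245, minus strand.
Psmb9: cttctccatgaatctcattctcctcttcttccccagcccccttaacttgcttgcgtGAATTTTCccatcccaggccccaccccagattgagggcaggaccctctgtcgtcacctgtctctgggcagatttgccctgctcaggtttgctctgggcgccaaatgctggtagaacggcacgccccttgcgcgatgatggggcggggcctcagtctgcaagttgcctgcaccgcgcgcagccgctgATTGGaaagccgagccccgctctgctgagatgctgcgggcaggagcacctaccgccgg
Psmb6: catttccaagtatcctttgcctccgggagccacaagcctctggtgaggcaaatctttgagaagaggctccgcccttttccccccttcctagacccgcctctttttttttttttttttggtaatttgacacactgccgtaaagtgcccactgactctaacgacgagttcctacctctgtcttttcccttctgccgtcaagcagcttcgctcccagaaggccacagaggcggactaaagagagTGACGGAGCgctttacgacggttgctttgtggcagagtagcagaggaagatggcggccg
Psmb8: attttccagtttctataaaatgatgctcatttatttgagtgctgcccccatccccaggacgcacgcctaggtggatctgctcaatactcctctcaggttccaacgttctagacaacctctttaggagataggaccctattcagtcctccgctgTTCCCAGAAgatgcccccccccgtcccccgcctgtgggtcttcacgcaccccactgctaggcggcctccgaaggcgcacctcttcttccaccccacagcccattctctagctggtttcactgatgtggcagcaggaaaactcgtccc
Psmb5: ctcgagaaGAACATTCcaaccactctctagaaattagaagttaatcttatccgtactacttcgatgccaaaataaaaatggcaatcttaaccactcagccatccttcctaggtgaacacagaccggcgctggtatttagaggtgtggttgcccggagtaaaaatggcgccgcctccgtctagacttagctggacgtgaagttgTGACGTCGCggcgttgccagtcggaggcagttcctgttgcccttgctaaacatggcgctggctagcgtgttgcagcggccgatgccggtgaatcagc
The capitals mark GAANNTTC (a heat shock element type) and CCAAT on the opposite strand in Psmb9, TGACNNNGC (an antioxidant response element type) in Psmb6, TTCNNNGAA (a STAT site type) in Psmb8, and GAANNTTC and TGACNNNGC in Psmb5. Both strands were searched, and no printed matches overlap each other. Windows were found for 42 of 50 members. TGACNNNGC was in 6 of these 42 windows (14.3%) and in 12.4% of all 32851 windows, GAANNTTC in 3 (7.14%) and 7.86%, and TTCNNNGAA in 3 (7.14%) and 8.3%. CCAAT was in 15 (35.7%) and 37.4%, and GAAANNGAA (an interferon response element type, not in any of the 4 printed windows) in 6 (14.3%; Psmb3, Psmb4, Psmd4, Psmd9, Psme1 and Psmg4) and 8.56%. A match is a description of letters and not a site.

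Libraries held 9683382 to 32095383 counts, and KO naive replicate 1 (9683382) and WT lung replicate 1 (9774684) were the shallowest. Fcer1g stood between 1.25 and 16.2 CPM (counts scaled to a common library size) in the 12 KO libraries, against 253 to 795 CPM in the 12 WT libraries, so the targeted gene matched every label. WT lung replicate 1 was the highest of its group for 45 of 48 members, and WT IL-15 replicate 2 for 41 of 48. Member counts that rest on these libraries are given with and without them. Only some of the medians and of the single genes whose call they change are given that way. Psmd1 was the sole member encoded on chromosome 1, which also carries Fcer1g.

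Per kilobase of the principal transcript, the immunoproteasome genes were among the most abundant members. Psme1 stood at 268 CPM per kb over the 24 libraries and Psmb8 at 246, followed by Psme2 at 173, with Psmb10 at 141 in the sixth place and Psmb9 at 98.8 in the 13th. The constitutive beta subunits ranged from 69.3 (Psmb2) to 155 CPM per kb (Psmb3), with a median of 117. The alpha subunits ranged from 42.2 (Psma3) to 135 (Psma7), with a median of 82.6. Cap genes were lower, with medians of 56.2 CPM per kb in the base and 51.9 in the lid. Assembly factors, which help to build the ring and the base and are not part of the finished particle, had a median of 15.2 CPM per kb. Psme4, which encodes the activator PA200, was at 9.03 and Psmf1, which encodes the inhibitor PI31, at 10.7 CPM per kb. Neighbours in this order often lay within each other's spread between libraries, as with Psmb6 and Psma7, both at 135.

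**Figure D1:**
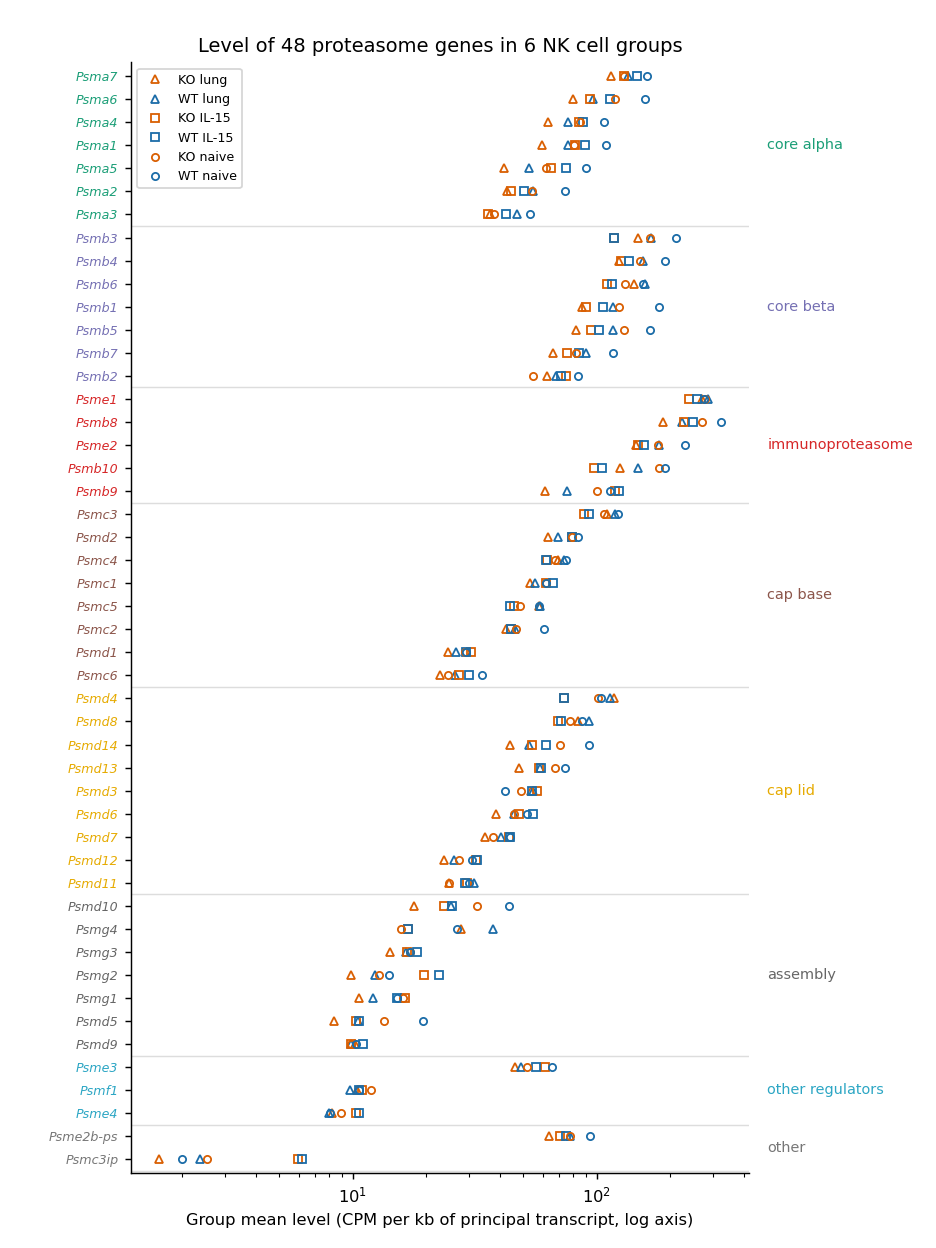
Mean level of the 48 tested members in each of the 6 groups, in CPM per kb of principal transcript on a log axis, with genes ordered by level within their class. Immunoproteasome genes lie on the right of the plot and assembly factors on the left, and WT naive spleen (blue circles) is the rightmost symbol for most core genes.

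Psmb11, Psma8 and Psmc3ip, outside the working particle, were low. Psmb11, the catalytic subunit of the thymus form, had 0 counts in all 24 libraries, which allows up to 0.310 CPM in the shallowest and 0.0935 CPM in the deepest library by a floor of 3 counts (counting error only). Psma8, the alpha subunit of the testis form, had counts in 9 libraries and at most 1.27 CPM, in WT naive replicate 2. Psmc3ip is named for binding a proteasome ATPase and acts in homologous recombination, and its level was 3.45 CPM per kb. Psme2b-ps was not low, at 76.3 CPM per kb. It is a near-identical copy of Psme2 whose reads the counting could have split, so both are uncertain, and Psme2 was also tested on their sum.

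In naive spleen, 15 of 48 members were lower in KO than in WT and 0 were higher, and the lower ones were mostly core subunits and assembly factors. Of all 13344 genes tested, 9.22% were lower and 11.1% higher in that comparison. By class, 4 of 7 alpha subunits, 3 of 7 constitutive beta subunits, 2 of 8 base genes, 2 of 9 lid genes, 3 of 7 assembly factors and 1 of 3 other regulators (Psme3) fell, and 0 of 5 immunoproteasome genes passed in either direction. The median change was −0.28 log2 units over the members and 0.00 over all genes tested, and 43 of 48 members had a negative sign. In bulk RNA, fewer cells of a type and less RNA per cell cannot be told apart.

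Psmd5, a chaperone that helps to build the base, had the smallest p. It stood at 61.3, 53.6, 63.3 and 56.8 CPM in KO naive spleen, against 83.1, 89.3, 88.0 and 80.5 CPM in WT naive spleen, and the groups did not overlap. It fell by 0.56 ± 0.10 log2 units (± standard error, n = 4 and 4, adjusted p = 0.00122 by edgeR's quasi-likelihood test). Psmg4, a chaperone of the alpha ring, was at 6.84, 9.12, 8.48 and 10.7 CPM in KO and 16.5, 10.8, 16.8 and 15.2 CPM in WT. All KO libraries were below all WT libraries for Psmg4, whose change was −0.77 ± 0.18 (adjusted p = 0.00741). Psmd10, the base chaperone also known as gankyrin, ranged from 43.8 to 47.4 CPM in KO and from 55.7 to 66.5 CPM in WT and changed by −0.46 ± 0.15 (adjusted p = 0.0332).

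Among constitutive beta subunits, Psmb2, Psmb1 and Psmb3 fell. Psmb1, a structural subunit of the beta ring, stood at 234, 194, 233 and 201 CPM in KO, against 330, 339, 322 and 274 CPM in WT, a change of −0.58 ± 0.16 (adjusted p = 0.0163). Psmb2 changed by −0.63 ± 0.17 (adjusted p = 0.0132), with the shallow KO replicate 1 at 26.9 CPM and the other KO libraries between 50.8 and 57.7, against 67.5 to 75.9 CPM in WT. The alpha subunits that fell were Psma1 (−0.47 ± 0.14), Psma5 (−0.57 ± 0.17), Psma3 (−0.52 ± 0.17) and Psma2 (−0.48 ± 0.16), with adjusted p between 0.0218 and 0.0417. Psma5 stood at 75.1, 70.5, 87.8 and 73.8 CPM in KO and 118, 116, 117 and 96.0 CPM in WT. The 3 constitutive catalytic subunits missed the threshold, at −0.39 ± 0.20 for Psmb5, −0.26 ± 0.20 for Psmb6 and −0.52 ± 0.19 for Psmb7 (adjusted p = 0.187, 0.377 and 0.0548).

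In the cap, the ATPases Psmc6 (−0.48 ± 0.14, adjusted p = 0.0208) and Psmc2 (−0.40 ± 0.12, adjusted p = 0.0278) fell. So did 2 lid genes, Psmd11 (−0.29 ± 0.09, adjusted p = 0.0246) and Psmd14 (−0.42 ± 0.13, adjusted p = 0.0307), which encodes the deubiquitinase of the lid. Psmd11 varied little, at 70.3, 71.8, 69.9 and 71.4 CPM in KO and 91.2, 86.4, 81.0 and 82.5 CPM in WT. Psme3, which encodes the nuclear activator PA28γ, stood at 131, 140, 148 and 135 CPM in KO, against 179, 170, 177 and 175 CPM in WT, and fell by 0.37 ± 0.09 (adjusted p = 0.00904). The immunoproteasome genes overlapped between genotypes, with changes from −0.39 ± 0.19 for Psme2 to −0.02 ± 0.15 for Psme1 and adjusted p between 0.147 and 0.959.

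This count depended on how transcript length was handled and on single libraries. Members have shorter exon models than the genes at large (median 2804 bases, against 4110 over all tested), and the naive KO change of all genes differed with length, with a median of −0.10 under 5000 bases and 0.15 at or above it. With an offset for length and GC content, 4 of 48 members were past the threshold, namely Psmd5 (−0.61), Psmb1 (−0.60), Psma7 (−0.51) and Psme3 (−0.26). Of all 13151 genes tested with the offset, 7.78% were lower and 7.82% higher, so the members were near that share. Psma7 passed only with the offset in this comparison, and the median over members was −0.10. Under that offset Psmd14 was at −0.04 and Psmd10 turned to 0.11. Without KO naive replicate 1, 2 or 4 there were 8, 8 and 9 calls, without WT naive replicate 1, 2 or 3 there were 7, 7 and 8, and without both shallow libraries 8. Of the 13565 to 13612 genes tested in these fits, 755 to 1105 were lower, against 1230 of 13344 with all libraries. Psmb1, Psmd5 and Psme3 passed in each of the 19 alternatives. Other markers also moved with genotype in naive spleen: the 8 T cell markers summed to between 33.2 and 57.9 CPM in KO and between 19.0 and 26.6 in WT, the myeloid markers to 720 to 933 and 499 to 714, and the endothelial and stromal markers to 96.3 to 124 and 53.3 to 74.9. NK cell markers summed to between 14204 and 16952 CPM in KO and between 18289 and 20327 in WT. None of these markers was at 0 in all libraries. Mitochondrially encoded genes took 1.18 to 9.28% of counts in naive KO spleen and 4.89 to 6.31% in naive WT spleen. The part of the markers and of these genes in the result was not tested.

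**Figure D2:**
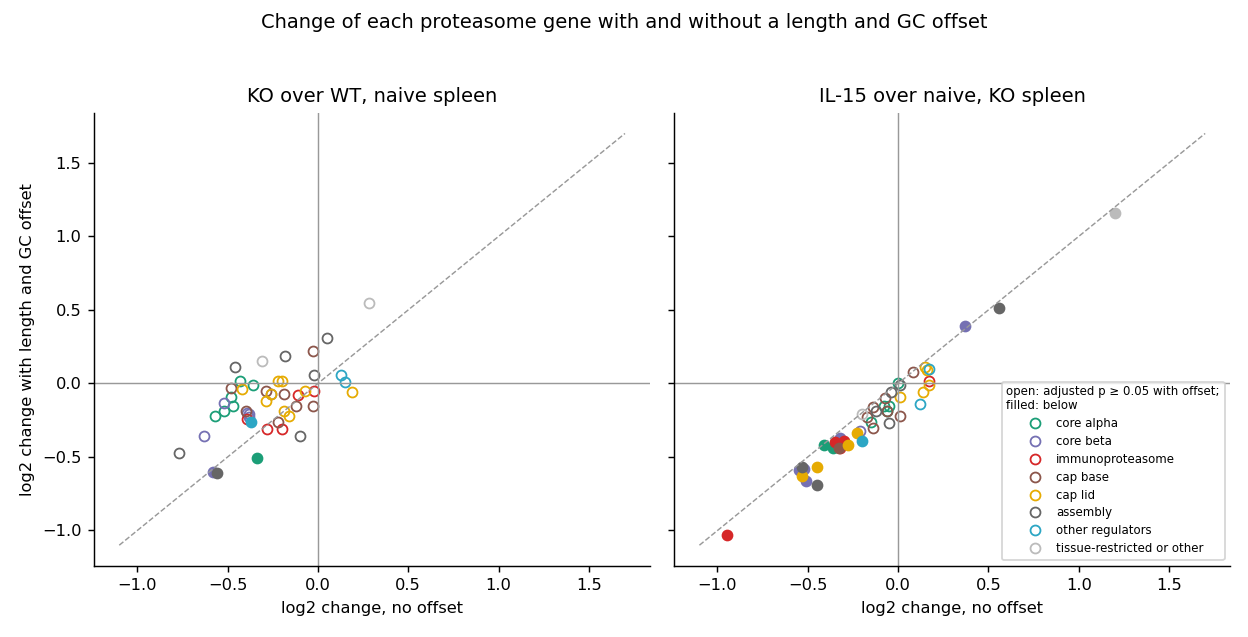
Change of each of the 48 members with (y axis) and without (x axis) an offset for transcript length and GC content, in log2 units, for KO over WT in naive spleen (left) and IL-15 over naive in KO spleen (right); filled points pass an adjusted p of 0.05 with the offset and the dashed line marks equal values. On the left most points move up towards 0 and 4 are filled, and on the right the points lie slightly below the line and 21 are filled.

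Under IL-15, 0 of 48 members differed between KO and WT, where 0.135% of all genes did in either direction. None had an unadjusted p under 0.05 with edgeR, and DESeq2 and voom with library weights also called 0. Changes ranged from −0.29 ± 0.17 (Psma6) to 0.11 ± 0.09 (Psme3), with a median of −0.08 over members and −0.01 over all genes. As an example, Psmd5 stood at 47.2, 44.5, 43.3 and 45.9 CPM in IL-15 KO spleen and 49.0, 51.7, 42.1 and 43.1 CPM in IL-15 WT spleen, and the groups overlapped.

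In tumour-bearing lung, 0 of 48 members passed with edgeR, where 0.625% of all genes did, and 9 had an unadjusted p under 0.05, all lower in KO. DESeq2 and voom also called 0. The median was −0.24 over members and 0.00 over all genes. Without WT lung replicate 1 the median over members was −0.05, 33 members had a negative sign instead of 44, and Psmb5 passed (−0.32, adjusted p = 0.0497). Psmb5, the constitutive chymotrypsin-like subunit, stood at 72.3, 74.7, 75.4 and 72.9 CPM in KO lung, against 143, 97.9, 93.0 and 83.8 CPM in WT lung, so the groups did not overlap with or without that library. Its change over all libraries was −0.50 ± 0.15 (adjusted p = 0.238). Mitochondrially encoded genes took 8.49 to 10.7% of counts in KO lung and 3.17 to 6.14% in WT lung, and their part in the result was not tested.

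Whether the KO effect differed between states was tested as an interaction. No member passed for IL-15 against naive spleen (1.54% of all genes did), and 7 had an unadjusted p under 0.05, all with a less negative KO effect under IL-15. The smallest adjusted p was that of Psme3 (0.47 ± 0.13, 0.0696) and the next that of Psmd5 (0.51 ± 0.14, 0.0803). DESeq2 called both (0.45 and 0.49, adjusted p = 0.00393 and 0.0186). Of all genes it called 1.63% higher and 3.55% lower. Voom called them with Psmb2, Psmb3 and Psmc2, where 3.76% of all genes were higher and 6.13% lower. Without WT IL-15 replicate 2, Psme3, Psmd5 and Psmb3 passed, where 301 of 13557 genes were higher and 413 lower. No member passed for lung against naive spleen (1.15% of all genes did, 1 member with an unadjusted p under 0.05, DESeq2 and voom 0).

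**Figure D3:**
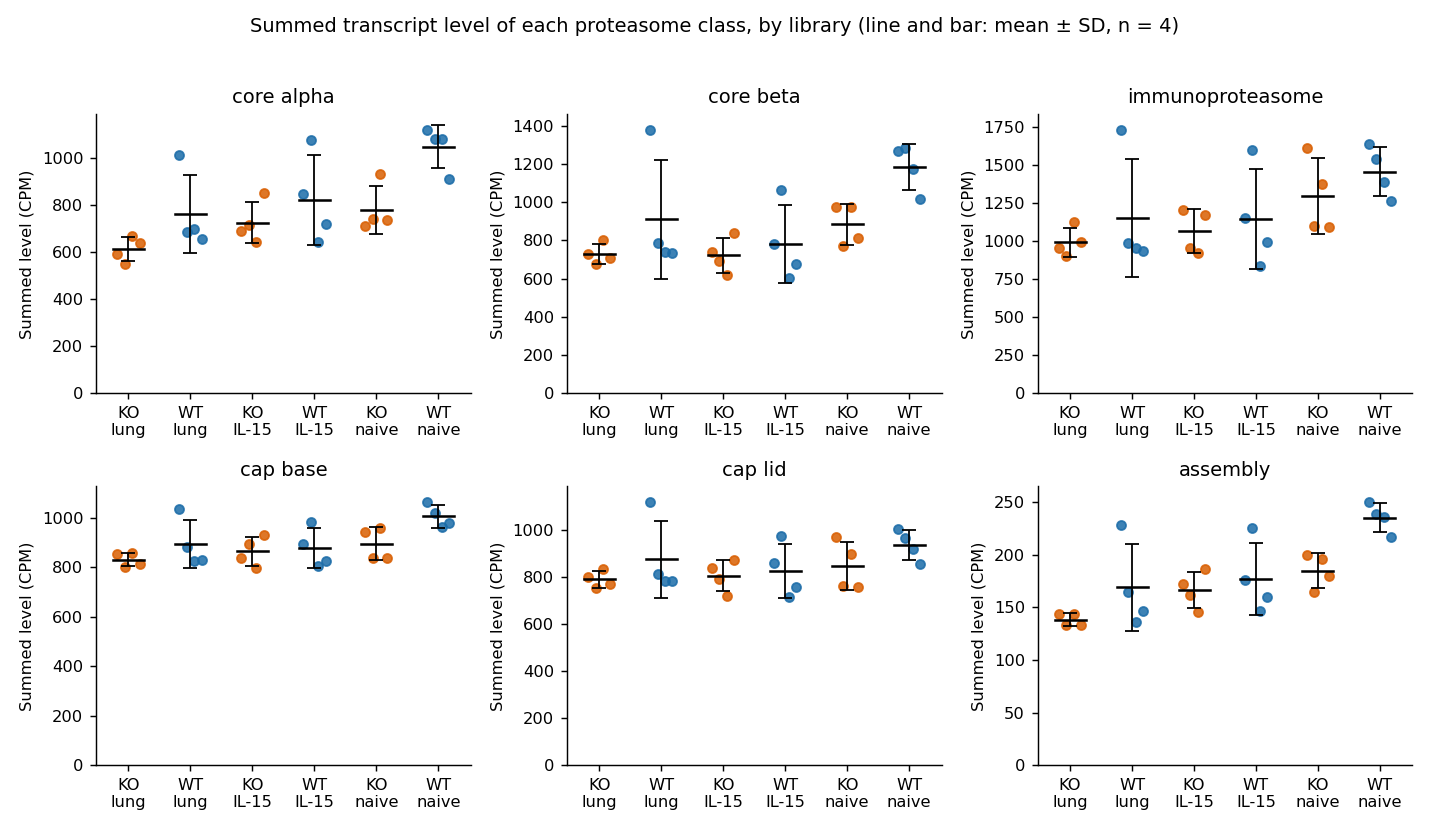
Summed CPM of 6 classes in each library (points), with the mean and SD of the 4 libraries of a group (line and bar), KO in orange and WT in blue; the y axes start at 0. WT lung replicate 1 and WT IL-15 replicate 2 stand above the rest of their groups in each of the 6 panels, and WT naive spleen has the highest mean in each.

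Summed over all members, proteasome transcripts made up 4365 ± 260 CPM in KO lung, 5047 ± 1180 in WT lung, 4686 ± 428 in IL-15 KO spleen, 4954 ± 953 in IL-15 WT spleen, 5193 ± 572 in naive KO spleen and 6214 ± 485 in naive WT spleen (SD, n = 4 each). Without WT lung replicate 1 the mean in WT lung was 4459 ± 125 (n = 3), and without WT IL-15 replicate 2 the mean in IL-15 WT spleen was 4520 ± 482 (n = 3). The other regulators, not plotted, did not follow those libraries, since WT lung replicate 1 was at 211.8 CPM and the other WT lung libraries between 220.9 and 222.9, and WT IL-15 replicate 2 at 242.0 and the other IL-15 WT libraries between 257.8 and 273.5. These sums are descriptions with no test.

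In WT spleen, IL-15 treatment was accompanied by lower transcripts of 25 of 48 members and higher transcripts of 2, where 26.0% of all genes were lower and 26.4% higher. The lower members included 5 of 7 alpha subunits, 6 of 7 constitutive beta subunits, 3 of 5 immunoproteasome genes, 4 of 8 base genes, 3 of 9 lid genes, 3 of 7 assembly factors and Psme3. The median was −0.37 over members and −0.01 over all genes. Without WT IL-15 replicate 2, 30 members were lower and 2 higher, with a median of −0.51, where 3689 of 13557 genes were lower and 3644 higher. In every alternative tried, 13 of the 27 passed, namely Psma2, Psmb1, Psmb3, Psmb4, Psmb5, Psmb10, Psme2, Psmc2, Psmd4, Psmd14, Psmd5, Psmd10 and Psmc3ip. The comparison shares its naive WT libraries with the genotype comparison above, so the 2 sets of values are not independent.

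Psmd5 had the smallest p here too, at 49.0, 51.7, 42.1 and 43.1 CPM in IL-15 WT spleen, against 83.1, 89.3, 88.0 and 80.5 CPM in naive WT spleen, and fell by 0.96 ± 0.10 (adjusted p = 3.59e-07). Psmb3, a structural beta subunit, stood at 85.7, 114, 78.9 and 81.8 CPM under IL-15, against 167, 171, 162 and 148 CPM in naive spleen (−0.93 ± 0.13, adjusted p = 6.91e-06). Neither gene overlapped between the groups. Psmb1 and the catalytic subunit Psmb5 changed by −0.84 ± 0.16 and −0.78 ± 0.20 (adjusted p = 0.000239 and 0.00356). The alpha subunits with the smallest p were Psma2 (−0.65 ± 0.16), Psma6 (−0.55 ± 0.17) and Psma1 (−0.38 ± 0.14), with adjusted p of 0.00229, 0.00958 and 0.0261. With the length and GC offset Psma6 and Psma1 were both at −0.23 and did not pass (adjusted p = 0.0688 and 0.0703).

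In the base, the ATPases Psmc2 (−0.53 ± 0.12), Psmc5 (−0.48 ± 0.12) and Psmc3 (−0.47 ± 0.15) fell, and in the lid the deubiquitinase Psmd14 (−0.66 ± 0.13), the ubiquitin receptor Psmd4 (−0.58 ± 0.13) and Psmd8 (−0.37 ± 0.13), all with adjusted p between 0.00035 and 0.0213. Psmd4 stood at 103, 119, 85.1 and 84.7 CPM under IL-15, against 140, 148, 148 and 116 CPM in naive WT spleen, and WT IL-15 replicate 2 overlapped with the lowest naive library. Among assembly factors Psmd10 fell by 0.86 ± 0.15 (adjusted p = 8.07e-05) and Psmg4 by 0.74 ± 0.18 (adjusted p = 0.00222). Psmg2, the partner of Psmg1 in a chaperone of the alpha ring, rose, at 22.0, 34.4, 19.5 and 19.5 CPM under IL-15 against 14.7, 18.9, 14.4 and 11.7 CPM in naive spleen (0.59 ± 0.20, adjusted p = 0.0177). Without WT IL-15 replicate 2, Psmg2 was at 0.36 and did not pass (adjusted p = 0.0979). Psmc3ip also rose, at 6.89, 11.9, 6.53 and 6.68 CPM against 4.08, 2.17, 2.27 and 1.78 CPM (1.56 ± 0.35, adjusted p = 0.000965). The 3 cycling markers summed to between 1147 and 1644 CPM in IL-15 WT spleen, against 37.9 to 58.9 CPM in naive WT spleen. Mitochondrially encoded genes took 1.76 to 2.78% of counts in IL-15 WT spleen, against 4.89 to 6.31% in naive WT spleen. NK cell markers summed to between 6745 and 8138 CPM in IL-15 WT spleen, against 18289 to 20327 CPM in naive WT spleen. The part of any of these in the changes was not tested.

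In KO spleen, 8 of 48 members were lower under IL-15 and 2 higher, where 21.0% of all genes were lower and 20.7% higher. The median was −0.14 over members, against −0.01 over all genes. The lower members were Psmb1, Psmb3, Psmb5, Psmb10, Psmd4, Psmd14, Psmd5 and Psmd10, and the higher ones Psmg2 and Psmc3ip. All 10 also passed in the same direction in WT spleen. That comparison shares no library with this one, but both come from the same fit and its estimate of spread. Psmd5 stood at 47.2, 44.5, 43.3 and 45.9 CPM in IL-15 KO spleen, against 61.3, 53.6, 63.3 and 56.8 CPM in naive KO spleen (−0.45 ± 0.10, adjusted p = 0.00175). Psmb3 stood at 90.4, 90.4, 81.7 and 99.2 CPM, against 110, 125, 144 and 126 CPM (−0.55 ± 0.13, adjusted p = 0.00176). Neither overlapped between the groups. Psmg2 changed by 0.56 ± 0.20 (adjusted p = 0.0319) and Psmc3ip by 1.20 ± 0.35 (adjusted p = 0.00916). That fewer members passed in KO than in WT is not shown to be a difference between genotypes, since the interaction called 0 members with edgeR. Of the 10 members, Psmb3, Psmb10, Psmd4, Psmd14, Psmd5 and Psmd10 passed in every alternative. Psmb1 did not pass without KO IL-15 replicate 3, Psmb5 without KO IL-15 replicate 1, 2 or 3 or KO naive replicate 1 or 3, and Psmg2 without KO IL-15 replicate 1, 2 or 4 or KO naive replicate 2, 3 or 4. In KO spleen the cycling markers summed to between 1108 and 1693 CPM under IL-15, against 40.2 to 60.5 CPM in naive spleen, and the NK cell markers to between 6052 and 6800, against 14204 to 16952 CPM. Mitochondrially encoded genes took 0.809 to 2.82% of counts in IL-15 KO spleen, against 1.18 to 9.28% in naive KO spleen. The part of these markers and genes in the result was not tested. With the length and GC offset, 18 members were lower and 3 higher in KO spleen, where 31.5% of all genes were lower and 17.6% higher. That offset put the median of all genes at −0.16. With DESeq2, 8 were lower and 5 higher, where 20.9% of all genes were lower and 24.4% higher.

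In lung against naive spleen, 17 members were lower and 1 higher in WT, and 15 were lower and 1 higher in KO. Of all 14275 genes tested, 20.0% were lower and 29.2% higher in WT, and 18.1% lower and 24.3% higher in KO. The median change was −0.28 over members and 0.08 over all genes in WT, and −0.23 and 0.05 in KO. Tissue, tumour and preparation differ together in these comparisons and cannot be told apart. Lower in both genotypes were 12 members.

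The deubiquitinase gene Psmd14 and the base chaperones Psmd5 and Psmd10 fell in lung in both genotypes. Psmd14 stood at 93.0, 81.8, 78.1 and 72.1 CPM in WT lung, against 155, 148, 147 and 124 CPM in naive WT spleen, and at 69.3, 64.5, 71.7 and 65.6 CPM in KO lung, against 120, 101, 123 and 92.6 CPM in naive KO spleen. The groups did not overlap in either genotype, and it fell by 0.82 ± 0.12 in WT and by 0.68 ± 0.12 in KO (adjusted p = 4.12e-06 and 6.67e-05). Psmd5 changed by −0.88 ± 0.10 in WT and −0.67 ± 0.10 in KO (adjusted p = 7.10e-08 and 6.72e-06), and Psmd10 by −0.81 ± 0.17 and −0.87 ± 0.17 (adjusted p = 0.000254 and 0.000168). With the length and GC offset, Psmd14 was at −0.43 in WT lung and passed, as did Psmd5, while Psmd10 was at −0.23 and did not (adjusted p = 0.128). Without WT lung replicate 1, Psmd14, Psmd5 and Psmd10 were at −0.89, −0.93 and −1.04 in WT.

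Alpha subunits made up 5 of the lower members in WT lung and 4 in KO lung. Psma5 changed by −0.77 ± 0.16 in WT and −0.58 ± 0.16 in KO, Psma6 by −0.71 ± 0.17 and −0.58 ± 0.17, and Psma1 by −0.53 ± 0.13 and −0.43 ± 0.13. With the offset, Psma5 and Psma6 were at −0.49 and −0.29 in WT lung, and Psma1 was at −0.18 and did not pass (adjusted p = 0.160). Psmb1 (−0.63 ± 0.18 and −0.49 ± 0.18) and Psmb5 (−0.52 ± 0.19 and −0.65 ± 0.19) fell in WT and KO. In the base, Psmd2, a scaffold that binds ubiquitin-like proteins, fell by 0.28 ± 0.08 in WT and 0.32 ± 0.08 in KO. Psmc2 and Psmc6 fell in WT (−0.40 ± 0.12 and −0.36 ± 0.12; with the length and GC offset Psmc2 was at −0.16 and Psmc6 at 0.19, and Psma2 at 0.01), and Psmd1 in KO (−0.23 ± 0.09, adjusted p = 0.0497). Psmb1 in KO did not pass without KO lung replicate 1, 2 or 4 or KO naive replicate 1 or 3, Psmb5 in WT without WT lung replicate 2, 3 or 4 or WT naive replicate 1 or 2, and Psmd1 in KO without any 1 of its 8 libraries. Psme3 fell by 0.43 ± 0.08 in WT (adjusted p = 0.000157) and was at −0.17 ± 0.08 in KO (adjusted p = 0.110).

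The higher member differed by genotype. Psmd3, a lid gene, was higher in WT lung, at 137, 119, 107 and 110 CPM, against 109, 86.3, 75.3 and 92.0 CPM in naive WT spleen (0.38 ± 0.11, adjusted p = 0.00740), and turned to −0.17 with the length and GC offset. Psmg4 was higher in KO lung, at 17.0, 16.3, 13.4 and 14.7 CPM, against 6.84, 9.12, 8.48 and 10.7 CPM in naive KO spleen (0.80 ± 0.24, adjusted p = 0.00967). In WT lung Psmg4 was at 36.1, 18.7, 10.3 and 18.5 CPM (0.48 ± 0.24, adjusted p = 0.102). The KO naive libraries that serve as its comparison here are those in which Psmg4 was lower than in WT. The difference between genotypes in these lung changes was 0.32 ± 0.34 for Psmg4 and −0.25 ± 0.16 for Psmd3 (KO minus WT), and neither passed (adjusted p = 0.717 and 0.503).

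WT lung replicate 1 moved the WT count. Without it, 27 members were lower and 1 higher, with a median of −0.40, where 3225 of 14552 genes were lower and 4260 higher. Without both shallow libraries 29 members were lower and 1 higher, where 3510 of 14488 genes were lower and 4486 higher. In KO, leaving out KO naive replicate 3 gave 9 lower and 1 higher, where 2363 of 14589 genes were lower and 3224 higher. The 5 lung epithelial markers summed to between 22.3 and 405 CPM in KO lung and between 14.1 and 63.7 in WT lung, against at most 6.36 CPM in naive spleen, and the neutrophil markers to 9.58 to 31.1 and 2.97 to 20.0, against at most 1.31 CPM. Melanocytic markers reached 50.9 CPM in KO lung and 16.9 in WT lung, against at most 0.0989 CPM in naive spleen. NK cell markers summed to between 10222 and 11954 CPM in KO lung, against 14204 to 16952 CPM in naive KO spleen, and to between 11373 and 15929 CPM in WT lung, against 18289 to 20327 CPM in naive WT spleen. Their part in these results was not tested.

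**Figure D4:**
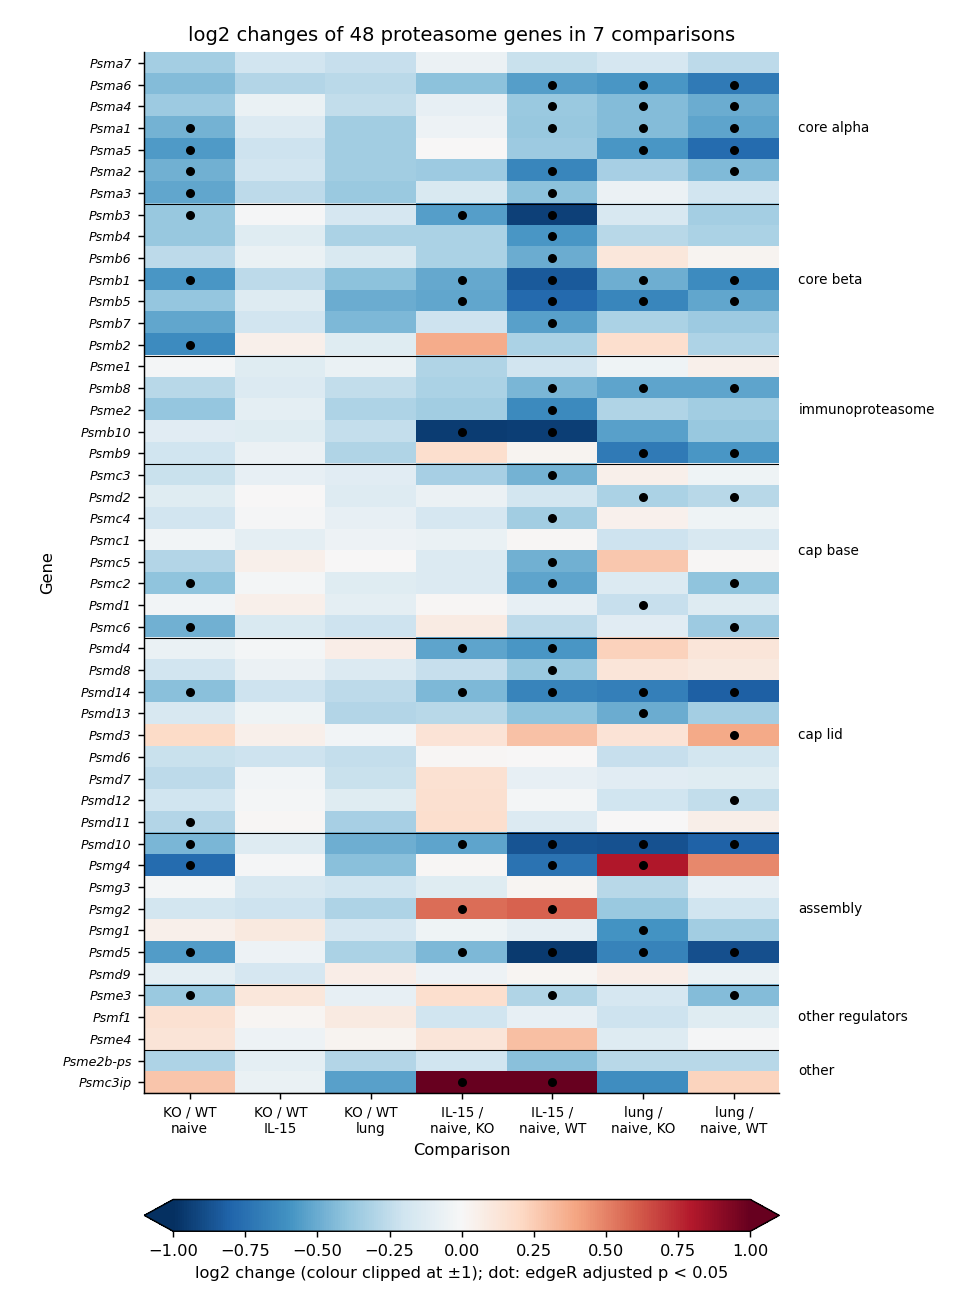
log2 change of the 48 tested members (rows, by class) in 7 comparisons (columns), tested state or genotype over its comparison; blue is lower, red is higher, colours are clipped at 1 log2 unit and dots mark an edgeR adjusted p under 0.05. The KO over WT columns under IL-15 and in lung hold no dot, and the IL-15 over naive column of WT holds the most, 27.

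The calls of the 5 immunoproteasome genes differed between states and depended on settings and single libraries. In the main edgeR fits, Psmb10 fell under IL-15 in both genotypes and did not pass in lung. Psmb9 fell in lung in both genotypes and did not pass under IL-15, and Psmb8 fell in all of these comparisons but IL-15 in KO. Voom with library weights also called Psmb10 and Psme2 in WT lung. Without WT lung replicate 1, Psmb10 (−0.71, adjusted p = 0.0206) and Psme2 (−0.59, adjusted p = 0.0078) also passed in WT lung, beside Psmb8 (−0.79) and Psmb9 (−0.76). With the length and GC offset all 5 genes passed as lower in lung in both genotypes, with Psmb10 at −0.81 in KO and −0.70 in WT (adjusted p = 0.00185 and 0.00552). Under IL-15 the same offset left Psmb9 at 0.02 in KO and −0.17 in WT (adjusted p = 0.909 and 0.271), and the other 4 genes passed as lower in both genotypes. That offset put the median of all genes at −0.16 in KO and −0.13 in WT under IL-15, against −0.01 in both without it, and at −0.09 in KO and −0.06 in WT in lung, against 0.05 and 0.08 without it. Psmb10 stood at 131, 218, 87.6 and 114 CPM in IL-15 WT spleen, against 292, 268, 226 and 214 CPM in naive WT spleen (−0.94 ± 0.26, adjusted p = 0.00579). In KO it stood at 162, 105, 103 and 141 CPM under IL-15, against 367, 171, 238 and 169 CPM in naive spleen (−0.95 ± 0.26, adjusted p = 0.00716). WT IL-15 replicate 2 overlapped with the naive WT libraries, and the KO groups did not overlap.

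Psmb9 stood at 78.7, 72.5, 92.6 and 89.2 CPM in KO lung, against 139, 127, 156 and 121 CPM in naive KO spleen (−0.71 ± 0.15, adjusted p = 0.000626), and at 139, 99.6, 88.1 and 83.3 CPM in WT lung, against 164, 155, 145 and 149 CPM in naive WT spleen (−0.58 ± 0.15, adjusted p = 0.00267). Lung lay below naive spleen in every library of both genotypes. Under IL-15 Psmb9 was at 181, 147, 149 and 164 CPM in KO and 161, 223, 128 and 151 CPM in WT, with changes from naive spleen of 0.17 ± 0.14 and 0.03 ± 0.14 (adjusted p = 0.368 and 0.867).

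Psmb8 stood at 302, 280, 345 and 292 CPM in KO lung, 545, 323, 297 and 291 in WT lung, 405, 335, 319 and 417 in IL-15 KO spleen, 415, 561, 290 and 347 in IL-15 WT spleen, 559, 356, 457 and 383 in naive KO spleen and 584, 558, 510 and 442 in naive WT spleen. It fell by 0.53 ± 0.19 in KO lung, 0.53 ± 0.19 in WT lung and 0.46 ± 0.18 in IL-15 WT spleen (adjusted p = 0.0304, 0.0265 and 0.0410), and was at −0.32 ± 0.18 in IL-15 KO spleen (adjusted p = 0.171). These Psmb8 calls were lost when single libraries were left out: in KO lung without KO lung replicate 1, 2 or 4 or KO naive replicate 1 or 3, in WT lung without WT lung replicate 2, 3 or 4 or WT naive replicate 1 or 2, and under IL-15 in WT without WT IL-15 replicate 1, 3 or 4 or WT naive replicate 1, 2 or 3. Psme2 fell under IL-15 in WT (−0.64 ± 0.19, adjusted p = 0.00754), also on its sum with Psme2b-ps (−0.58 ± 0.18, adjusted p = 0.0134). Its partner Psme1 passed in no comparison in the main edgeR fits, with changes between −0.30 ± 0.15 (IL-15, KO) and 0.05 ± 0.17 (lung, WT). Voom with library weights called Psme1 under IL-15 in WT. Without WT IL-15 replicate 2 it passed as lower in WT (−0.35, adjusted p = 0.0261). With the length and GC offset it passed as lower under IL-15 (−0.39 in KO and −0.28 in WT, adjusted p = 0.00455 and 0.0286) and in lung (−0.32 in KO and −0.31 in WT, adjusted p = 0.0373 and 0.0412). Transcripts of Psme1 stood at 296, 241, 234 and 287 CPM in IL-15 KO spleen, 291, 376, 220 and 256 in IL-15 WT spleen, 341, 284, 346 and 267 in naive KO spleen and 330, 322, 293 and 283 in naive WT spleen.

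The log2 ratio of each immune subunit to the constitutive subunit it replaces was computed in every library, as a description with no test. For Psmb9 over Psmb6 it was −0.58, −0.53, −0.41 and −0.26 in KO lung, −0.49, 0.02, −0.16 and −0.41 in WT lung, 0.96, 0.81, 0.95 and 0.75 in IL-15 KO spleen, 0.88, 0.72, 0.92 and 1.00 in IL-15 WT spleen, −0.01, 0.64, 0.53 and 0.42 in naive KO spleen and 0.18, 0.29, 0.36 and 0.48 in naive WT spleen. In each genotype every IL-15 library was above every naive library, and every lung library below. The means differed from naive spleen by 0.47 (KO) and 0.55 (WT) under IL-15 and by −0.84 (KO) and −0.59 (WT) in lung. Of the 2 genes, Psmb6 fell under IL-15 in WT (−0.50 ± 0.20, adjusted p = 0.0372) and was at −0.32 ± 0.20 in KO (adjusted p = 0.206).

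Psmb8 over Psmb5 moved less, with means of 2.04 in KO lung, 1.78 in WT lung, 2.13 in IL-15 KO spleen, 2.13 in IL-15 WT spleen, 1.94 in naive KO spleen and 1.81 in naive WT spleen. Only IL-15 against naive spleen in WT did not overlap in this ratio among the 7 comparisons. Psmb10 over Psmb7 averaged 1.09 in KO lung, 0.87 in WT lung, 0.53 in IL-15 KO spleen, 0.45 in IL-15 WT spleen, 1.24 in naive KO spleen and 0.90 in naive WT spleen. It was lower under IL-15 without overlap in WT, and overlapped in KO spleen, where IL-15 replicate 1 (0.96) stood above the naive replicate 4 (0.77). It lay between 1.02 and 1.13 in KO lung and between 0.79 and 0.94 in WT lung, without overlap. KO naive replicate 1, the shallow library, had a ratio of 1.95, above every other library.

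**Figure D5:**
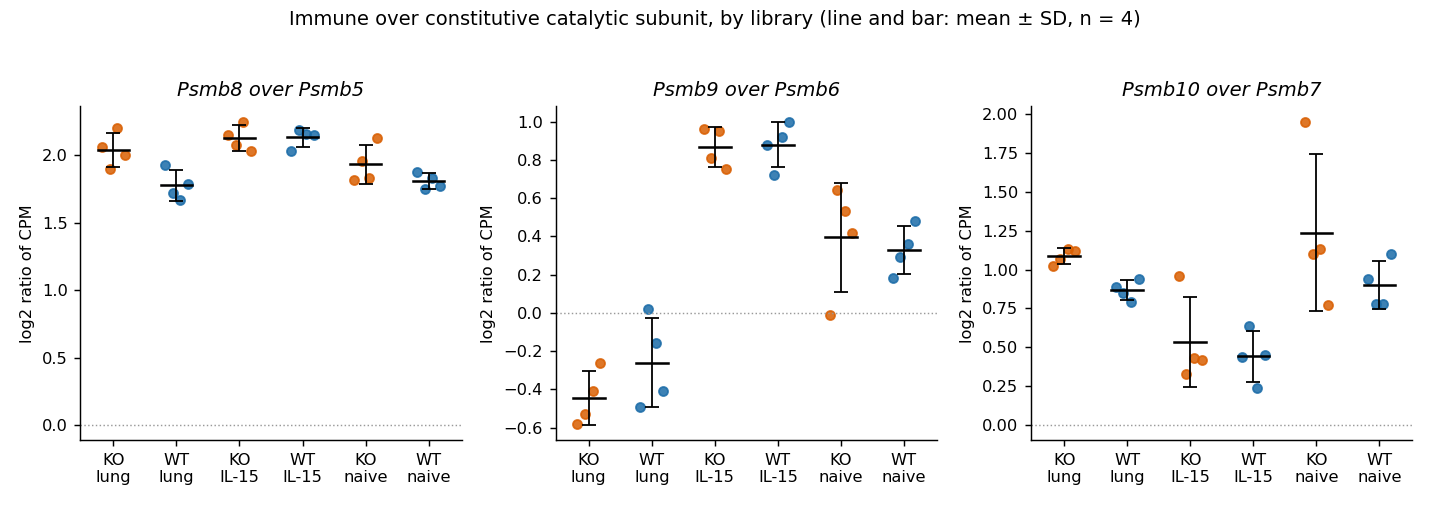
log2 ratio of CPM of each immune catalytic subunit over the constitutive subunit it replaces, in each library (points), with the mean and SD of 4 libraries (line and bar), KO in orange and WT in blue. For Psmb9 over Psmb6, lung libraries lie between −0.58 and 0.02, IL-15 libraries between 0.72 and 1.00 and naive libraries between −0.01 and 0.64.

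Over the 7 direct comparisons, 38 members passed at least once, 10 never did and 2 were not tested. Those that never passed were Psma7, Psme1, Psmc1, Psmd6, Psmd7, Psmd9, Psmg3, Psme4, Psmf1 and Psme2b-ps. That holds for the main edgeR fits only. Psma7, Psme1, Psmc1, Psmd7, Psme4, Psmf1 and Psme2b-ps passed under some of the alternatives. The values that follow come from comparisons that share naive libraries and stand side by side without a test across them. Psmb1 was at −0.58 (KO over WT, naive), −0.51 and −0.84 (IL-15 over naive, KO and WT) and −0.49 and −0.63 (lung over naive, KO and WT). In the same order Psmd14 was at −0.42, −0.45, −0.66, −0.68 and −0.82. Psmd5 was at −0.56, −0.45, −0.96, −0.67 and −0.88, and Psmd10 at −0.46, −0.53, −0.86, −0.87 and −0.81. All of these values passed the threshold in the main edgeR fits. That follows from the choice, since these are the members that passed as lower in 5 comparisons. With the length and GC offset in naive KO, Psmd14 was at −0.04 and Psmd10 at 0.11, and neither passed (adjusted p = 0.880 and 0.583 by edgeR).

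Of 30 other genes of the ubiquitin-proteasome pathway, 2 rose and 5 fell in naive KO spleen, where 11.1% of all genes were higher and 9.22% lower. Their median was −0.15, against 0.00 over all genes. Nfe2l1, the transcription factor that drives proteasome subunit genes when proteasome activity is limiting, averaged 131 ± 7.90 CPM in naive KO and 86.7 ± 19.6 CPM in naive WT spleen (SD, n = 4 each; 0.57 ± 0.13, adjusted p = 0.00624). The ubiquitin shuttle Ubqln1 fell in naive KO (−0.42 ± 0.10, adjusted p = 0.00554) and was the gene of the list that passed between KO and WT in lung (−0.53 ± 0.10, adjusted p = 0.0422). Under IL-15, 0 of the 30 differed between KO and WT, and 1 had an unadjusted p under 0.05.

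Under IL-15 against naive spleen, 5 of the 30 rose and 11 fell in WT, where 26.4% of all genes were higher and 26.0% lower. In KO 4 rose and 7 fell, where 20.7% of all genes were higher and 21.0% lower. Zfand5, a proteasome-binding factor that stimulates degradation, had the smallest p in both, averaging 71.3 ± 3.88 CPM in IL-15 KO spleen, 77.1 ± 3.24 in IL-15 WT spleen, 139 ± 8.62 in naive KO spleen and 157 ± 12.2 in naive WT spleen (−1.03 ± 0.09 in KO and −1.11 ± 0.09 in WT). In lung against naive spleen, 8 rose and 7 fell in WT, where 29.2% of all genes were higher and 20.0% lower, and 5 rose and 8 fell in KO, where 24.3% were higher and 18.1% lower. Zfand2a, a stress-induced partner of the cap, rose by 1.28 ± 0.15 in KO and 1.68 ± 0.15 in WT.

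Of 7 genes for interferon signalling and peptide loading, 1 rose in naive KO spleen, the loading factor Tapbp (0.43 ± 0.12, adjusted p = 0.0210). Under IL-15, 5 fell and 1 rose in WT and 5 fell and 0 rose in KO, beside shares of all genes of 26.0% lower and 26.4% higher in WT and 21.0% and 20.7% in KO. In lung 4 fell and 1 rose in WT and 5 fell and 0 rose in KO, beside 20.0% lower and 29.2% higher in WT and 18.1% and 24.3% in KO. With 7 genes these counts are descriptions. Irf1, a transcription factor induced by interferon, changed by −0.94 ± 0.09 in KO and −0.78 ± 0.09 in WT under IL-15. In lung Irf1 was the gene that rose in WT (0.33 ± 0.09, adjusted p = 0.00231 by edgeR), and it was at 0.17 ± 0.08 in KO (adjusted p = 0.101).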

How the data were processed

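Poly(A) RNA of NK cells was sequenced in 24 libraries. The deposited values are expected counts per gene, which the authors made with RSEM 1.2.30; the submitters' processing notes also name cutadapt 1.9, STAR 2.5.2a and GRCm38. Settings and annotation release are not stated there. Of these values 5.47% were not whole, and 39 of 50 members held whole numbers only. No column of per-sample values was left unused.

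Rounded counts were tested with edgeR 4.0.16 in R 4.3.3. Genes were kept by filterByExpr, libraries were scaled by TMM, and quasi-likelihood p-values were adjusted over all genes tested by Benjamini-Hochberg, with a threshold of 0.05. The 16 spleen libraries shared a fit, as did the 8 lung libraries, and lung against spleen and its interaction used all 24. A standard error is the absolute log2 change divided by the root of the F statistic. CPM were taken on scaled totals, and ratios were taken on CPM with no pseudocount. Levels per kb used the principal transcript, and the length and GC offset used the union of exons, both from GENCODE M21. Totals of 9683382 to 32095383 counts set the precision.

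The alternatives comprised DESeq2 1.42.0, edgeR with size factors from DESeq2, no filter, a minimum of 1 CPM in 4 libraries, the length and GC offset, voom with library weights (limma 3.58.1), replicate blocks, other sets of libraries and each library left out. Summing Psme2 and Psme2b-ps was chosen after seeing the data, as were the promoter motifs. Tests were tried on simulated counts. Members and gene lists were chosen with earlier results of these data known. Named were the immunoproteasome and constitutive catalytic genes, up to 3 members per class and comparison by smallest p among those that passed, and up to 3 other pathway genes per list and comparison; others are named where a whole count is listed or a single value is singled out, and were chosen after their values were seen. Promoters came from RefSeq (GRCm38.p6). Some pathway genes that the naming rule covers are counted but not reported here by name.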

Additional observations from a re-analysis of the deposited data

Results flagged for a closer look

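A library was marked where its gap to the nearest of the other 3 libraries of its group, as a share of the group's range, exceeded Dixon's critical value, and 14 of 114 groups checked were marked; chance marks about 1 in 20. WT lung replicate 1 stood apart in 11 of these. It had the highest level of Psmb8 (545 CPM, the others between 291 and 323), Psmb10 (311 CPM, the others 149 to 160), Psme1 (476 CPM, the others 260 to 268), Psme2 (255 CPM, the others 141 to 152), Psmb6 (195 CPM, the others 98.3 to 111) and Psmb7 (168 CPM, the others 77.7 to 88.4). Its summed levels were 1011 CPM for the alpha subunits, 1376 for the constitutive beta subunits, 1727 for the immunoproteasome, 1119 for the lid and 6811 for all members, where the other 3 libraries stood between 4364 and 4600. It was also one of the shallow libraries, at 9774684 counts; the part of depth was not tested.

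The remaining 3 were KO lung replicate 3 for Psme2 (163 CPM, the others 129 to 134), KO naive replicate 3 for the summed alpha subunits (932 CPM, the others 710 to 741) and KO IL-15 replicate 1 for the log2 ratio of Psmb10 to Psmb7 (0.96, the others 0.33 to 0.43).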

How the results depend on the processing

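With the length and GC offset, 4 members passed in naive KO against WT, 1 in lung KO against WT and 21 in IL-15 against naive KO spleen. Of all genes, 7.82% were higher and 7.78% lower in the first of these, 0.486% and 0.656% in the second and 17.6% and 31.5% in the last. The offset put Psmd10 at 0.11 in naive KO, and Psma2, Psmc6 and Psmd3 at 0.01, 0.19 and −0.17 in WT lung. Without the shallow libraries there were 8 calls in naive KO, 1 in lung KO against WT and 30 in WT lung against naive spleen, where voom also gave 30. In WT lung against naive spleen, 3510 of 14488 genes were lower without those libraries, and 25.0% of all genes with voom. For the IL-15 interaction, DESeq2 gave 2 calls, the fit of all 24 libraries 1 and voom 5. Of all genes, DESeq2 called 1.63% higher and 3.55% lower there, and voom 3.76% and 6.13%. The cause of these differences was not tested. Leaving out 1 library in turn gave 7 to 17 calls in naive KO, 0 to 1 in lung KO against WT, 8 to 11 in KO and 20 to 32 in WT under IL-15, 10 to 16 in KO and 14 to 28 in WT for lung, and 0 to 3 for the IL-15 interaction. In KO spleen under IL-15, higher and lower calls were 5 and 8 with DESeq2 and 4 and 6 with all 24 libraries, against 2 and 8 as reported. Same-numbered libraries did not deviate together in every pair (correlations from −0.19 to 0.247). Such correlations cannot decide whether same-numbered libraries share an animal or a batch, and the labels do not say. The replicate block gave 12 calls in naive KO, 9 in KO and 27 in WT under IL-15, 15 in KO and 18 in WT for lung, and 0 in the other comparisons; a block by library number gave 14 under IL-15 in WT and 10 in KO. Calls that passed in every alternative numbered 3 of 15 in naive KO, 6 of 10 in KO and 13 of 27 in WT under IL-15, and 10 of 16 in KO and 8 of 18 in WT for lung. For members called in the main edgeR fits, 1381 values under alternatives kept direction and call, 225 lost the call and 4 changed sign. That tally leaves out members not called there. Some of those also changed sign, such as Psma6 in naive KO (−0.43, and 0.02 with the length and GC offset), and some gained a call.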

Other observations

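Members varied together within a group. KO IL-15 replicate 4 was the highest of its group for 34 of 48 members and replicate 3 the lowest for 36, and WT IL-15 replicate 3 was the lowest of its group for 35. In KO lung, replicate 3 was highest for 27 members and replicate 2 lowest for 27. In naive WT spleen, replicate 1 was highest for 29 and replicate 4 lowest for 32. The median coefficient of variation over the 48 tested members was 7.51% in KO lung, 23.0% in WT lung, 10.7% in IL-15 KO spleen, 19.9% in IL-15 WT spleen, 13.5% in naive KO spleen and 9.24% in naive WT spleen. The most even members were Psmd11 in naive KO spleen (1.30%) and Psmb5 in KO lung (1.95%).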
